A study of Mus musculus with 4 samples.

Results

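The genes described here carry glucose into the cell and through glycolysis, lactate export and the pentose phosphate pathway, together with the oxygen sensor and the transcripts it controls. They were chosen by name, with earlier results of these data known. A list of 41 symbols was matched to the array's annotation, and every probe set that named 1 of these genes and no other was taken. The rule found 37 of the 41. Of these, 36 were read by 83 gene probe sets and were counted, out of 18193 genes measured on the array, and Gapdh was read only by 3 control probe sets and is given apart. Eno1, G6pdx, Gpi1 and Bnip3l were not matched. Bnip3l had 3 probe sets, each of which also named a second gene, and the other 3 symbols are not analysed here.

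RNA came from macrophages grown from the bone marrow of C57BL/6 mice, either wild type (WT) or with both Hes1 and Hey1 knocked out (DKO). Cells of both genotypes were cultured for 5 days with 10% serum and 10% L929 supernatant, a source of macrophage colony stimulating factor. They were then left untreated or exposed for 3 h to 2 ng/ml LPS, the bacterial cell wall component sensed by Toll-like receptor 4. Each of the 4 groups (WT untreated, WT with LPS, DKO untreated, DKO with LPS) was measured on 1 array. How the genes were deleted, in which cells, and how many mice gave the marrow are not given in the sources used here. Hes1 and Hey1 are transcriptional repressors of the bHLH class, and the series set out to examine inflammatory genes under their control.

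Glycolysis splits glucose into pyruvate in the cytosol, and lactate dehydrogenase lets it run on without mitochondria by turning pyruvate into lactate. The pentose phosphate pathway branches off early and yields NADPH and ribose. Macrophages exposed to LPS are known for a shift toward glycolysis, in which the hypoxia factor HIF-1, whose alpha subunit is encoded by Hif1a, takes part even where oxygen is plentiful. Prolyl hydroxylases (Egln1, Egln3) mark that subunit for the ubiquitin ligase subunit Vhl when oxygen is present, and HIF-1 binds DNA at sites with the core ACGTG or GCGTG.

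With 1 array per group there was no replicate check, and no comparison was tested. Differences are therefore those between single arrays, on a log2 scale, and a gene was counted as higher or lower when it differed by at least 2-fold. Where a gene had at least 2 probe sets above the floor of 52.9 units (the pooled median, to which lower values were raised), the difference seen by the second brightest gives a rough scale for measurement disagreement. Over 4698 such genes the LPS differences read by both probe sets were a median of 0.26 apart in WT cells and 0.20 in DKO cells, and over the 21 members among them 0.21 and 0.16. Slc2a6, Hk2, Pfkfb3, Slc16a1, Slc16a3, Pdk3 and Ddit4 had no second probe set above the floor on any array, and so no second reading. The same held for Pfkm, Pfkfb4, Pgam1, Pkm, Ldha, Bnip3 and Taldo1. The second probe set of Egln3 was above it on 3 of the 4 arrays. This is disagreement within arrays and does not include variation between cultures.

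Array medians were 50.8 to 59.1 units, and the WT untreated array was brighter than the mean of the others by 0.24 on the log2 scale over 19618 dim probe sets and by 0.01 over 9369 bright ones. Hes1 read 45.4 and 26.7 units in WT cells and 2.14 and 5.80 in DKO cells, untreated and with LPS, so it was under the floor throughout. Hey1 read 57.2, 17.3, 9.17 and 10.2 units in the same order. Ratios of the 3' to the 5' Gapdh control probe set were 0.840 to 0.877, close to each other on the 4 arrays. All 8 macrophage markers were above the floor on every array, whereas summed markers of erythroid, T and NK, B, dendritic, fibroblast and mast cells were 14.8 to 223 units, and of 7 neutrophil markers only S100a8 was above the floor. Of 4 progenitor markers 3 were above the floor on every array, and 1 of these, Cd34, was over 2-fold lower in DKO cells (values with the genotype comparison).

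The promoters of 6 genes are printed first, because these genes showed the differences described below: Slc2a1, Slc2a6, Hif1a, Slc16a3 and Ddit4 were higher with LPS, and Slc16a1 was lower in DKO cells. Each window runs from 250 bases before to 50 after the annotated RefSeq start on assembly GRCm38.p6, 5' to 3' on the gene's strand, and capitals mark ACGTG or GCGTG on either strand (CACGT or CACGC when read on the printed strand). The windows are chr4:119108495-119108794 on the plus strand for Slc2a1, chr2:27027949-27028248 on the minus strand for Slc2a6, chr12:73907617-73907916 on the plus strand for Hif1a, chr11:120948817-120949116 on the plus strand for Slc16a3, chr10:59951721-59952020 on the minus strand for Ddit4 and chr3:104638414-104638713 on the plus strand for Slc16a1.
Slc2a1: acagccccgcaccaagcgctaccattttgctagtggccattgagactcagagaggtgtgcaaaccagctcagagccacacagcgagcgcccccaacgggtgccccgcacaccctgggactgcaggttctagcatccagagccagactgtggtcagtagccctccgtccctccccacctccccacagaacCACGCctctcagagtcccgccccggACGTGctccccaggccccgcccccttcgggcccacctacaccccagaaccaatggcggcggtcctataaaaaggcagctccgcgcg
Slc2a6: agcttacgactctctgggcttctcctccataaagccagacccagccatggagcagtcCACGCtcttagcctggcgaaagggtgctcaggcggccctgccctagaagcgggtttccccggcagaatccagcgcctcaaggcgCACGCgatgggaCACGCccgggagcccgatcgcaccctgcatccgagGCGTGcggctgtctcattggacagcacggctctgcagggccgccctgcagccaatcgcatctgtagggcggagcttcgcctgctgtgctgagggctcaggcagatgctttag
Hif1a: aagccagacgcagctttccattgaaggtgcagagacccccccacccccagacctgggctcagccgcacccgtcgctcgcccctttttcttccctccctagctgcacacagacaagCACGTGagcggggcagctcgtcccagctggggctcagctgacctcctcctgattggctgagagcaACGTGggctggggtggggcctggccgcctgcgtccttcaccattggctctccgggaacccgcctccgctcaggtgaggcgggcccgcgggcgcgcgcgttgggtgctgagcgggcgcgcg
Slc16a3: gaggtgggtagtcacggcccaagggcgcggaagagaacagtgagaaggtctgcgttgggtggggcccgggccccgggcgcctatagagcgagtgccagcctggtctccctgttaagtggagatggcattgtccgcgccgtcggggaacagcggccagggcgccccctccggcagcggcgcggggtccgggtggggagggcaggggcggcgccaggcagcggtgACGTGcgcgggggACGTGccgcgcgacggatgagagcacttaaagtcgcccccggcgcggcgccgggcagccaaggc
Ddit4: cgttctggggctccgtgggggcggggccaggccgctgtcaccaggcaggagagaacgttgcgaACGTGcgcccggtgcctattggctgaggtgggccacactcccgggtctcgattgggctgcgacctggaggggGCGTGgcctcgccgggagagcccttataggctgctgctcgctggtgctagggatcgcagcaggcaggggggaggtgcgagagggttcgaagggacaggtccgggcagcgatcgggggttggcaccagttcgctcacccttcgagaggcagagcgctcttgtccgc
Slc16a1: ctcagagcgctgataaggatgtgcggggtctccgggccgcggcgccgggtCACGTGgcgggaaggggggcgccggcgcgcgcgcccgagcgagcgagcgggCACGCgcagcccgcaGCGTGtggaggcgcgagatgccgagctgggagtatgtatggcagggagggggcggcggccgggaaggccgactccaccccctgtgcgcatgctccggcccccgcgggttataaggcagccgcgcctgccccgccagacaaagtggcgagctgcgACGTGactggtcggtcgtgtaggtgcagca

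All 6 windows held the core, with 2 matches in Slc2a1, Slc16a3 and Ddit4, 3 in Hif1a, 4 in Slc2a6 and 5 in Slc16a1, so genes that were higher with LPS and a gene that was lower both carried it. Promoters were matched for 34 of the 36 members, with 48 windows in all. ACGTG or GCGTG on either strand was in 39 of these 48 windows (81.2%) and in 32 of the 34 genes. Some genes had several windows and so more chances to match, and the shares given next are per window only. The share was 43.8% over all 32851 windows of the table and 64.4% over the 6985 windows of genes with a mean intensity of at least 500 units. CACGNG on either strand, the letters of the E-box-like sites that bHLH factors bind, was in 25 of the 48 windows (52.1%), against 27.5% of all windows and 41.1% of those of bright genes. The searches overlap: CACGTG holds ACGTG on both strands and so counts 2 times in the first, and CACGCG holds GCGTG on the other strand. A match gives letters in a window and was not tested as a binding site.

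**Figure D1:**
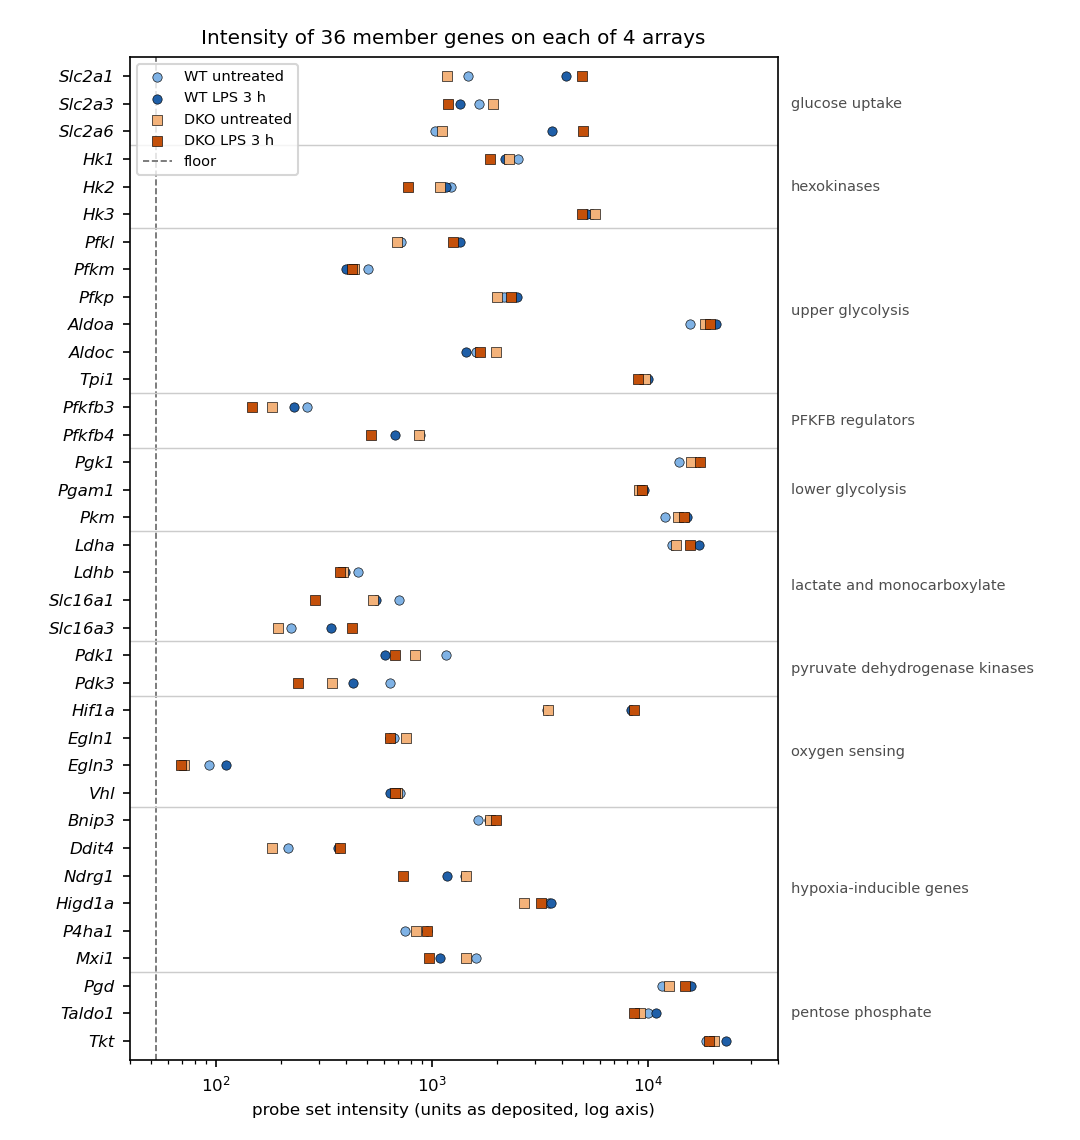
Intensity of the brightest probe set of each of 36 genes on the 4 arrays, on a log axis in deposited units, with circles for WT and squares for DKO, pale for untreated and dark for LPS. The dashed line is the floor of 52.9 units. The LPS arrays stand to the right of the untreated ones for Slc2a1, Slc2a6, Hif1a, Pfkl, Slc16a3 and Ddit4, and all 4 arrays lie close together for most glycolytic enzymes.

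All 36 genes were above the floor on every array, and 29 of them (80.6%) had a mean of at least 500 units, against 36.4% of the genes measured. Most of them differed little between arrays. With LPS, 3 of the 36 were at least 2-fold higher in WT cells (Slc2a1, Slc2a6 and Hif1a) and none was 2-fold lower on its brightest probe set. Of 11489 genes measured in that comparison, 3.36% were higher and 3.41% lower by the same rule. Dimmer probe sets of Ldhb, Ndrg1 and Mxi1 did pass 2-fold lower in WT cells, and those of Ndrg1 in DKO cells too. In DKO cells 5 of the 36 were higher with LPS (the same 3 genes, Slc16a3 and Ddit4) and none lower, beside 4.66% of 11240 genes higher and 4.77% lower. Both counts of higher genes are larger shares than these backgrounds, and they rest on 3 and 5 genes with no test.

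The centre of the set stayed near that of all genes. The median LPS difference over the 36 genes was 0.09 in WT cells and -0.03 in DKO cells, against -0.09 and -0.10 over all genes. The members ranged from -0.94 to 1.80 in WT cells and from -0.98 to 2.17 in DKO cells. Of the 36, 20 (55.6%) lay above 0 in WT cells and 16 (44.4%) in DKO cells, beside 40.8% and 39.1% of all genes. The LPS difference had the same sign in both genotypes, which share no array, for 32 of the 36 genes (16 above 0 and 16 below), or 88.9%, beside 76.5% of 9981 genes above the floor on all arrays. Setting array medians equal moved the median of all genes in WT cells from -0.09 to 0.12 and that of the members from 0.09 to 0.30, so small differences are read relative to all genes.

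**Figure D2:**
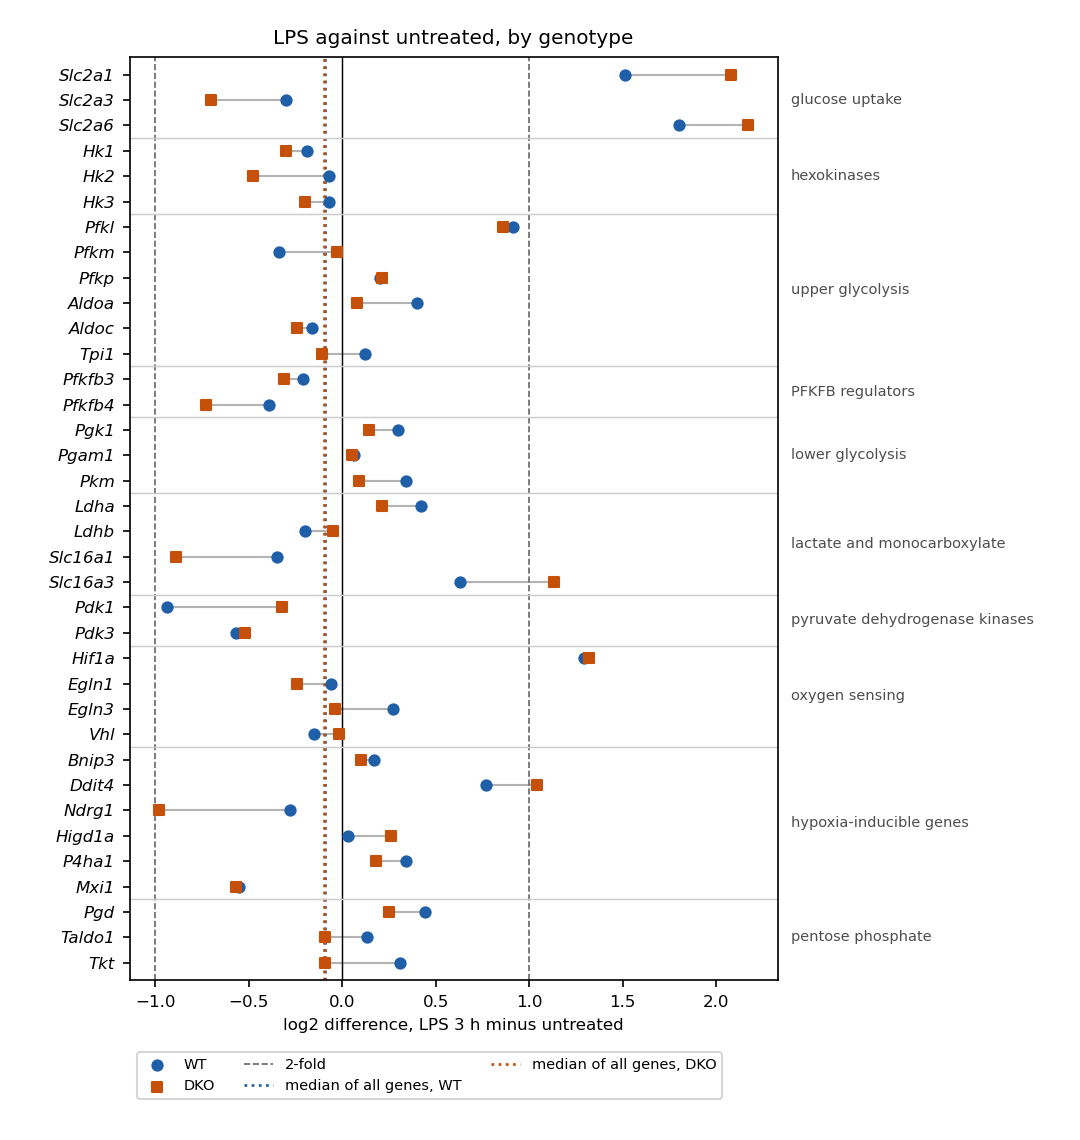
Log2 difference, LPS minus untreated, for each of 36 genes in WT cells (circles) and DKO cells (squares), joined by a grey line. Dashed lines mark 2-fold, and dotted lines the medians of all genes, -0.09 and -0.10. Slc2a1, Slc2a6 and Hif1a pass 2-fold in both genotypes, Slc16a3 and Ddit4 in DKO cells, and 32 of the 36 genes have the same sign in both.

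Among the glucose transporters, those encoded by Slc2a1 and Slc2a6 were higher with LPS in both genotypes, and Slc2a3 was not. Slc2a1 encodes GLUT1, the widely expressed carrier for basal glucose uptake. It read 1472 units in untreated WT cells and 4198 with LPS, and 1175 and 4966 in DKO cells. Both LPS arrays were above both untreated arrays, by 2.85-fold in WT cells (log2 1.51) and 4.23-fold in DKO cells (log2 2.08). All 3 Slc2a1 probe sets gave this order, with differences of 1.51 to 1.63 in WT cells and 2.08 to 2.35 in DKO cells. Slc2a6 encodes GLUT6, a transporter found largely on intracellular membranes. Its readings were 1035 and 3610 units in WT cells and 1120 and 5029 in DKO cells, untreated and with LPS. It had a larger LPS difference than any other member in both genotypes, 3.49-fold in WT cells (log2 1.80) and 4.49-fold in DKO cells (log2 2.17). Counted from the top it ranked 150 of 11489 genes in WT cells and 157 of 11240 in DKO cells, and Slc2a1 ranked 205 and 172. Slc2a3, which encodes the high-affinity carrier GLUT3, read 1656 and 1350 units in WT cells and 1935 and 1192 in DKO cells, lower with LPS by 1.62-fold in the latter. Its second probe set had the same signs, with LPS differences of -0.35 and -0.85.

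The hexokinases, which trap glucose as glucose-6-phosphate, did not pass 2-fold in any comparison. Hk1 read between 1869 and 2505 units on the 4 arrays and Hk3, the isoform of myeloid cells, between 4960 and 5682. Hk2, the inducible isoform, read 1231 and 1170 units in WT cells and 1091 and 781 in DKO cells. The DKO array with LPS was thus the lowest for all 3 genes, with log2 differences from untreated of -0.30, -0.48 and -0.20 for Hk1, Hk2 and Hk3. In WT cells the 3 differences were -0.19, -0.07 and -0.07. All 3 turned positive (0.02, 0.14 and 0.14) when array medians were set equal, as did the median of all genes (0.12). Under quantile normalization all 3 stayed negative (-0.22, -0.03 and -0.19). The second Hk3 probe set gave 0.23 in WT cells and -0.09 in DKO cells.

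Phosphofructokinase commits sugar to glycolysis, and of its 3 subunit genes Pfkl, the liver type, came nearest to 2-fold with LPS. Pfkl read 721 and 1355 units in WT cells and 691 and 1259 in DKO cells, untreated and with LPS. Both LPS arrays were above both untreated ones, by 1.88-fold and 1.82-fold. Its other probe sets read lower intensities and the same direction, with log2 differences of 0.54 and 1.18 in WT cells and 0.81 and 1.20 in DKO cells. Pfkp, the platelet type, was nearly level on its brightest probe set, at 2154 and 2478 units in WT cells and 2017 and 2337 in DKO cells. Its much dimmer probe sets disagreed in direction. The second brightest gave LPS differences of -0.56 in WT and -0.43 in DKO cells, and the dimmest gave 0.34 and 0.50. Pfkm, the muscle type, read 402 to 509 units over the 4 arrays. The bifunctional enzymes encoded by Pfkfb3 and Pfkfb4 set the amount of fructose-2,6-bisphosphate, an activator of phosphofructokinase, and both read lower with LPS in both genotypes, short of 2-fold, although the Pfkfb3 difference in WT cells was 0.00 with array medians set equal. Pfkfb3 read 266 and 230 units in WT cells and 182 and 147 in DKO cells. Pfkfb4 read 888 and 678 units in WT cells and 875 and 527 in DKO cells, a 1.66-fold difference in the latter.

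The enzymes further along the pathway gave bright signals and differed little between arrays. Pyruvate kinase (Pkm) read 11994 and 15153 units in WT cells and 13833 and 14691 in DKO cells, and lactate dehydrogenase A (Ldha) read 12949 and 17308 units and 13574 and 15718. Of the 36 genes, 9 had a mean of at least 9000 units: Aldoa, Tpi1, Pgk1, Pgam1, Pkm, Ldha and the pentose phosphate genes Pgd, Taldo1 and Tkt. With LPS in WT cells all 9 were above 0, by 0.06 to 0.44, with a median of 0.31. The 408 genes of that brightness had a median of 0.22 there, with quartiles of 0.07 and 0.39, so the 9 genes lay about where other bright genes did. Under quantile normalization the medians were 0.06 for the 9 and -0.01 for the 408, and Tpi1, Pgam1 and Taldo1 turned to -0.05, -0.11 and -0.04. In DKO cells the 9 genes had a median LPS difference of 0.08, beside 0.04 for the 408. The 3 Gapdh control probe sets read 17701 to 21066 units in untreated WT cells and 22397 to 25773 with LPS, log2 differences of 0.29 to 0.41, and in DKO cells the differences were 0.10 to 0.14.

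**Figure D3:**
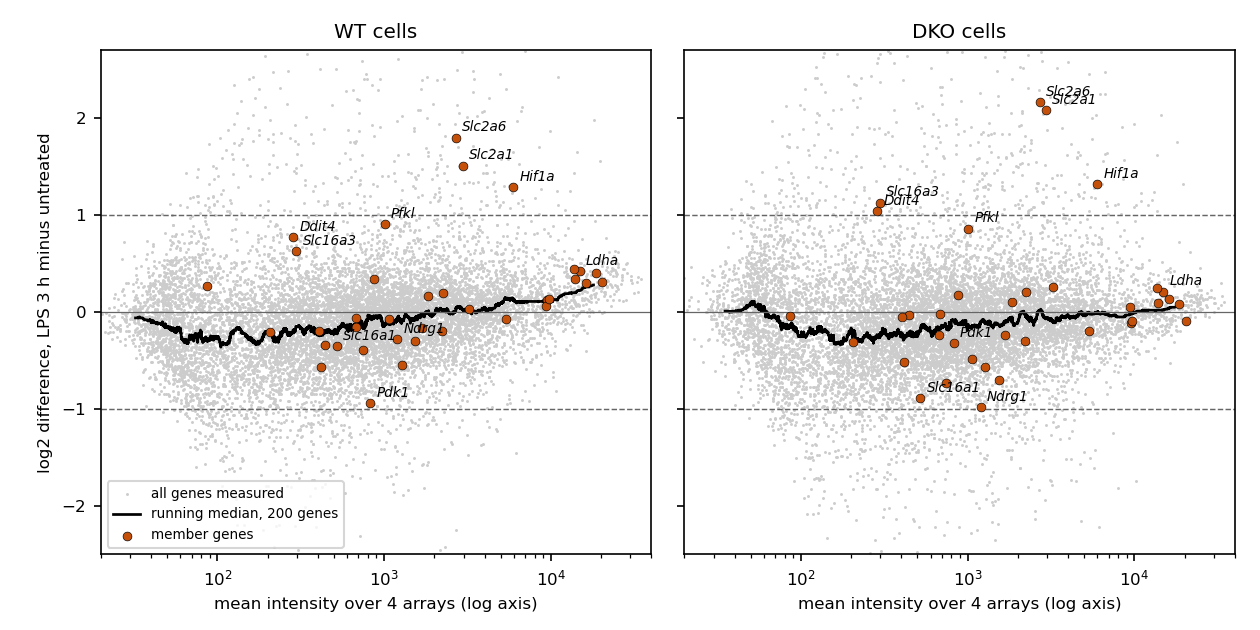
Log2 LPS difference against mean intensity over the 4 arrays (log axis) for all genes measured (grey) and the 36 genes (orange), WT cells on the left and DKO cells on the right. The black line is a running median of 200 genes, the dashed lines mark 2-fold, and some grey points lie outside the plotted range. The running median climbs at high intensity, more in WT cells, and the bright glycolytic genes lie near it, whereas Slc2a1, Slc2a6 and Hif1a stand above it in both panels.

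The 3 pentose phosphate genes were higher with LPS in WT cells by small amounts, and only Pgd was above 0 in DKO cells. Pgd, which encodes 6-phosphogluconate dehydrogenase and makes NADPH, read 11704 and 15842 units in WT cells and 12537 and 14931 in DKO cells, with log2 differences of 0.44 and 0.25. All 4 of its probe sets were above 0 in both genotypes. Transketolase (Tkt) and transaldolase (Taldo1) move carbon between the pentose and glycolytic pools. Tkt read 18634 and 23049 units in WT cells and 20388 and 19206 in DKO cells. Taldo1 read 10032 and 10980 units in WT cells and 9254 and 8691 in DKO cells. Against the 408 bright genes, Pgd lay above the upper quartile in both genotypes (0.39 in WT and 0.16 in DKO cells). Tkt and Taldo1 lay between the quartiles in WT cells (0.31 and 0.13) and under the lower one, -0.07, in DKO cells (both -0.09).

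Of the monocarboxylate transporters, Slc16a3 was higher with LPS and Slc16a1 lower. Slc16a3 encodes MCT4, the lactate exporter of glycolytic cells. It read 223 and 344 units in WT cells and 194 and 426 in DKO cells, 1.54-fold and 2.19-fold higher with LPS (log2 0.63 and 1.13). Both LPS arrays were above both untreated arrays. Slc16a1 encodes MCT1, which carries lactate and pyruvate in either direction. It read 705 and 554 units in WT cells and 536 and 289 in DKO cells, so the DKO array with LPS was well under the other 3. Its LPS difference was -0.35 in WT cells and -0.89 in DKO cells, where it was 1.86-fold lower. Ldhb, the isoform that favours pyruvate, read 375 to 458 units over the 4 arrays. All 4 of its probe sets were lower with LPS, from -1.32 to -0.06 in WT cells and from -0.75 to -0.05 in DKO cells.

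The pyruvate dehydrogenase kinases, which hold back entry of pyruvate into the mitochondrial cycle, were both lower with LPS, short of 2-fold. Pdk1 read 1170 and 609 units in WT cells and 842 and 674 in DKO cells, 1.92-fold lower with LPS in the former (log2 -0.94) and 1.25-fold in the latter (log2 -0.32). Its other probe sets did not show that gap: one read 849 and 708 units in WT cells and 945 and 670 in DKO cells, and the dimmer one stayed between 367 and 398. Pdk3 read 645 and 434 units in WT cells and 345 and 240 in DKO cells, with LPS differences of -0.57 and -0.52. Both DKO arrays were below both WT arrays for Pdk3.

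Hif1a was higher with LPS by similar amounts in both genotypes. It read 3418 and 8355 units in WT cells and 3445 and 8629 in DKO cells, 2.44-fold and 2.50-fold higher with LPS. The arrays of the same treatment differed between genotypes by 0.01 untreated and 0.05 with LPS on the log2 scale, although its 3 probe sets ranged from -0.39 to 0.54 for the latter. A dimmer probe set differed by 1.54 and 1.39 with LPS in WT and DKO cells, and the second brightest by 0.47 and 1.23, so the WT value depended on the probe set and was short of 2-fold on 1 of 3. The genes that regulate the protein differed less. Egln1, which encodes the prolyl hydroxylase PHD2, read 641 to 758 units over the 4 arrays and Vhl 642 to 711. Egln3, which encodes PHD3, was dim, at 93.2 and 112 units in WT cells and 71.2 and 69.4 in DKO cells. Its second probe set read 89.7 and 64.0 units in WT cells and 46.4, under the floor, and 84.7 in DKO cells, so the LPS difference had the opposite sign on it in both genotypes.

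**Figure D4:**
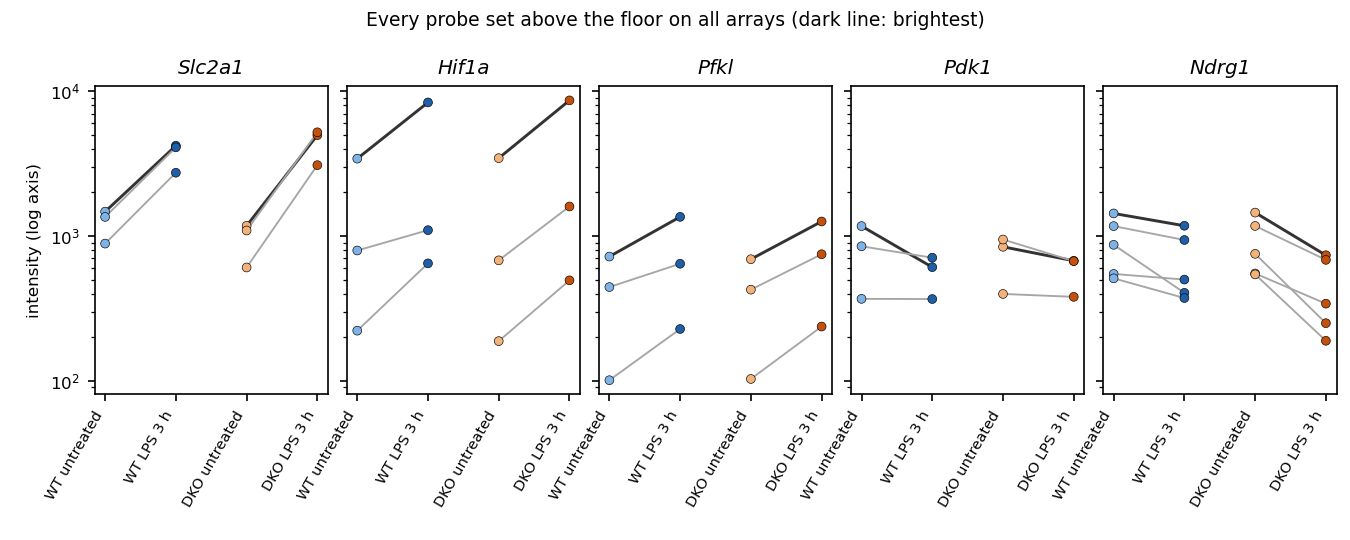
Intensity (log axis) of each probe set that stayed above the floor, for Slc2a1, Hif1a, Pfkl, Pdk1 and Ndrg1, with lines joining untreated to LPS within a genotype and the dark line for the brightest. All 3 Slc2a1 sets climb alike, the middle Hif1a set climbs less in WT cells, the Pdk1 sets differ in slope in WT cells, and all 5 Ndrg1 sets slope down, more in DKO cells.

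The 6 measured genes grouped here as hypoxia-inducible did not share a direction with LPS. This group is not a full list of the measured genes that HIF-1 can induce. Ddit4 (REDD1), an inhibitor of mTORC1 signalling, read 216 and 368 units in WT cells and 183 and 375 in DKO cells, 1.71-fold and 2.05-fold higher with LPS. Ndrg1, a stress-responsive gene, went the other way, at 1431 and 1176 units in WT cells and 1450 and 736 in DKO cells. Its LPS difference was -0.28 in WT cells and -0.98 in DKO cells, 1.97-fold lower, and the DKO array with LPS was the lowest of the 4. All 5 Ndrg1 probe sets were lower with LPS in both genotypes, from -1.10 to -0.13 in WT cells and from -1.59 to -0.69 in DKO cells. Mxi1, an antagonist of Myc, was also lower in both, at 1601 and 1094 units in WT cells and 1446 and 971 in DKO cells. Its dimmer probe set had LPS differences of -1.02 in WT cells and -0.46 in DKO cells. Bnip3, a mitophagy receptor, read 1645 to 1989 units over the 4 arrays, the collagen prolyl hydroxylase gene P4ha1 751 to 953, and Higd1a, a mitochondrial protein gene, 2685 to 3573. The median of the 6 was 0.10 in WT cells and 0.14 in DKO cells.

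Between genotypes, no member differed by 2-fold in either treatment. In untreated cells 0.466% of 11379 genes were at least 2-fold higher in DKO than in WT cells and 0.984% lower. With LPS the shares were 0.845% and 0.934% of 11236 genes. The member median was -0.04 untreated and -0.09 with LPS, against -0.02 and -0.04 over all genes. Members ranged from -0.90 to 0.30 untreated and from -0.94 to 0.48 with LPS. Of the 36, 16 (44.4%) were above 0 untreated and 12 (33.3%) with LPS, beside 47% and 43.4% of all genes. In bulk RNA, fewer cells of a type and less RNA per cell cannot be told apart.

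The 3 widest gaps in each treatment (Pdk3, Pfkfb3 and Pdk1 untreated, Slc16a1, Pdk3 and Egln3 with LPS) were on the lower side in DKO cells on the brightest probe sets, and for Pdk1 and Egln3 another probe set went the other way. Pdk3 was 1.87-fold lower in untreated DKO cells (345 against 645 units) and 1.80-fold lower with LPS (240 against 434), a rank from the bottom of 166 of 11379 genes and 179 of 11236. Slc16a1 was 1.31-fold lower untreated (536 against 705 units) and 1.92-fold lower with LPS (289 against 554), where it ranked 133 of 11236. Pfkfb3 was 1.46-fold and 1.56-fold lower. These 3 genes were lower in DKO cells in both treatments, which are separate pairs of arrays, and each was read by 1 probe set. How many mice gave the marrow is not given, so both pairs may share donors. Egln3 was 1.31-fold lower in DKO cells untreated and 1.62-fold with LPS (log2 -0.69), but its second probe set gave a log2 difference of 0.41 with LPS. Pdk1 was 1.39-fold lower in untreated DKO cells (log2 -0.48) on its brightest probe set, whereas its other probe sets gave 0.16 and 0.11, and with LPS the brightest gave 0.15. Higd1a was 1.31-fold lower untreated (log2 -0.39) and differed by -0.15 with LPS, whereas its second probe set gave -0.02 and 0.20. With LPS, Ndrg1 was 1.60-fold lower in DKO cells, with all 5 probe sets between -0.98 and -0.45, and Hk2 differed by -0.58 on the log2 scale. On the higher side Slc2a6 came first, 1.39-fold above WT with LPS.

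Cell markers also differed between genotypes. The macrophage list summed to 81447 units in untreated WT cells and 101407 in untreated DKO cells, and all 8 of its genes were higher in the DKO cells, by 0.23 to 0.68. With LPS the sums were 120106 and 127804 units. The 408 bright genes were mostly higher in untreated DKO cells too, with a median of 0.16 and quartiles of 0.06 and 0.24. Quantile normalization brought that median to 0.02. The brightest macrophage markers, Adgre1, Csf1r, Cd68, Lyz2 and Cd14, differed by 0.23 to 0.43 in untreated cells. The dimmer Itgam, Fcgr1 and Mertk differed by 0.30 to 0.68. How far this trend of bright genes enters the macrophage values was not tested. The progenitor list, of which 3 of 4 genes were above the floor, summed to 1137 and 844 units in WT cells and 621 and 483 in DKO cells, untreated and with LPS. Cd34, a marker of blood progenitors, led it at 876, 552, 361 and 229 units in the order WT untreated, WT with LPS, DKO untreated and DKO with LPS, log2 differences between genotypes of -1.28 and -1.27. The other progenitor markers above the floor differed less between genotypes. Kit differed by -0.05 untreated and -0.58 with LPS, and Gata2 by -0.11 and -0.01. The neutrophil marker S100a8 read 463 and 465 units in WT cells and 284 and 333 in DKO cells, log2 differences between genotypes of -0.71 and -0.48. Of the fibroblast markers, Col1a1, Col1a2, Col3a1 and Dcn were under the floor on every array. Pdgfrb, a marker of pericytes too, was under the floor in untreated cells. With LPS it read 62.1 units in WT cells and 144 in DKO cells, 2.32-fold higher. The part of these shifts in the lower Pdk3, Slc16a1 and Pfkfb3 values was not tested.

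**Figure D5:**
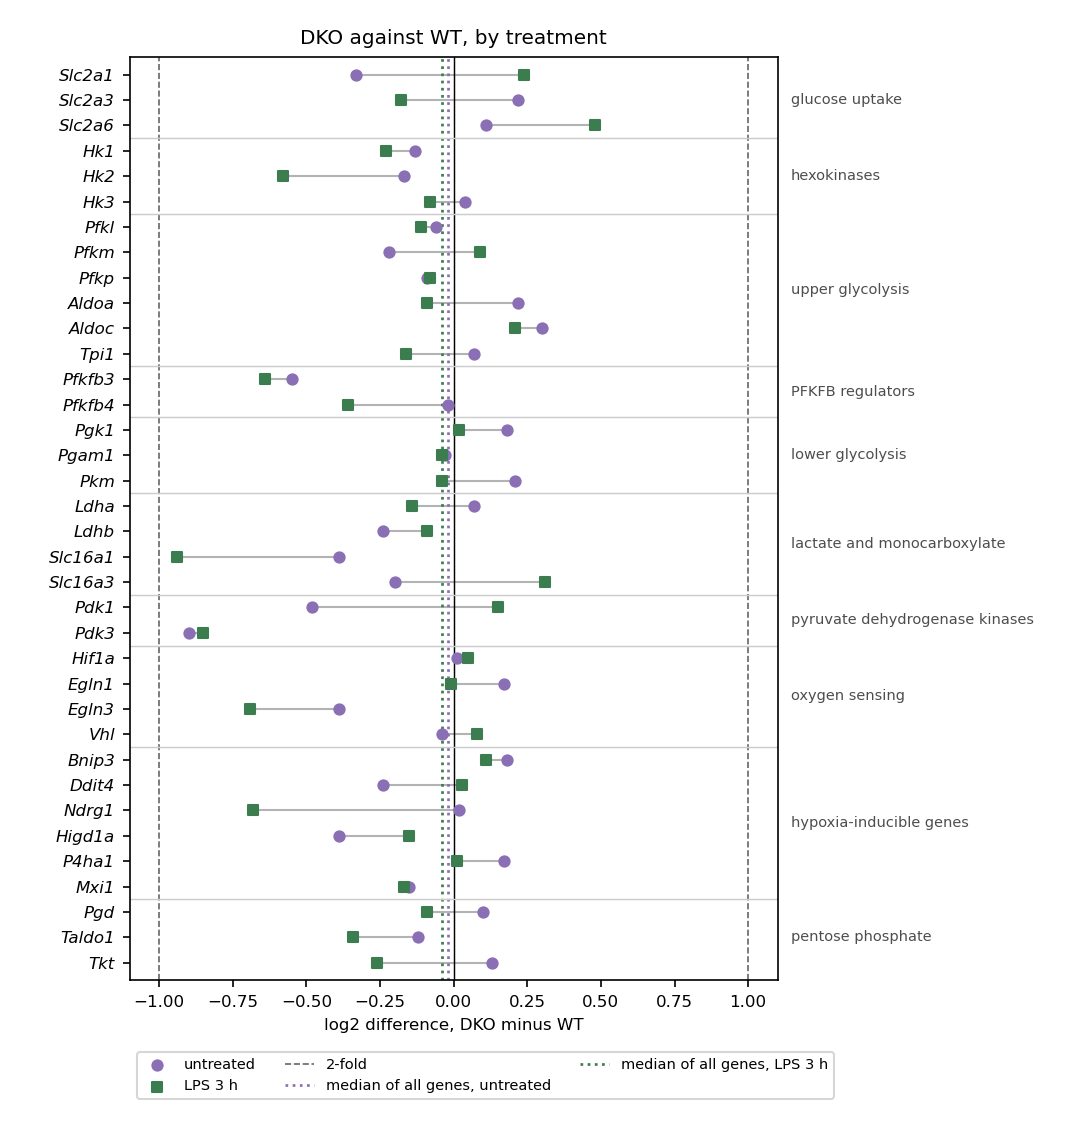
Log2 difference, DKO minus WT, for each of 36 genes in untreated cells (circles) and with LPS (squares), joined by a grey line. Dashed lines mark 2-fold, and dotted lines the medians of all genes, -0.02 and -0.04. No gene reaches 2-fold, and Pdk3, Slc16a1 and Pfkfb3 lie well to the left in both treatments, as does Egln3 on the probe set drawn.

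The difference between genotypes in the LPS effect, that is the log2 LPS difference in DKO cells minus that in WT cells, reached 2-fold for none of the 36 genes, beside 1.31% of 9981 genes above and 0.721% below. It ranged from -0.69 to 0.62, with a median of -0.10 against -0.05 over all genes. It was above 0 for 12 of 36 genes (33.3%), beside 43.6% of all genes. The LPS difference was larger in size in DKO cells for 18 of the 36 genes (50%), beside 56.9% of all genes. Ndrg1 had the lowest value, -0.69, and its 5 probe sets ranged from -1.07 to -0.46. Slc16a1 followed at -0.55. Pdk1 had the highest value, 0.62, but its second brightest probe set read -0.24. Slc2a1 (0.57, and 0.57 to 0.72 over its 3 probe sets), Slc16a3 (0.51) and Slc2a6 (0.36) had larger LPS differences on the DKO arrays than on the WT arrays. For Slc2a1 this combined a lower untreated value in DKO cells (log2 -0.33 against WT) and a higher one with LPS (0.24). With array medians set equal the values of Slc2a1, Slc16a3 and Slc2a6 were 0.36, 0.30 and 0.16, and the median of all genes was -0.26. For the 21 members with another probe set above the floor, the difference of LPS effects read by both was a median of 0.12 apart. Over 4698 genes it was 0.27 apart, and Slc16a3 and Slc2a6 had no second reading.

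Some genes of the same pathways outside the list passed 2-fold, and their counts are to be read beside the shares over all genes measured. With LPS these shares were 3.36% higher and 3.41% lower in WT cells, and 4.66% and 4.77% in DKO cells. Of 16 other glycolytic genes measured in each LPS comparison, none was 2-fold higher and 1 lower in WT cells, Pdk2, a further pyruvate dehydrogenase kinase gene, which read 177 and 79.9 units there and 139 and 125 in DKO cells. In DKO cells 1 was higher and none lower, the enolase gene Eno2, at 164 and 338 units, beside 216 and 222 in WT cells. None of the 7 other pentose phosphate genes and none of the 24 genes of pyruvate entry and the citrate cycle passed 2-fold in any comparison, the latter with LPS medians of 0.03 and -0.09. Of 21 other hypoxia genes measured in WT cells 2 were higher with LPS and none lower, and of 22 in DKO cells 1 was higher and none lower. Ak4, a mitochondrial adenylate kinase gene, was under the floor in untreated cells and read 216 units with LPS in WT cells and 368 in DKO cells, at least 4.09-fold and at least 6.95-fold higher. Jmjd6, which encodes a lysyl hydroxylase, read 202 and 444 units in WT cells, 2.19-fold higher, and was 1.95-fold higher in DKO cells. Between genotypes 1 gene of these lists passed 2-fold, the collagen-modifying gene Plod2, at 214 units in DKO cells with LPS against 106 in WT cells. In that comparison 0.845% of all genes were 2-fold higher.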

How the data were processed

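Per the labels' protocols, column-purified RNA was amplified, biotinylated and read on Affymetrix mouse arrays of 45101 probe sets. The authors deposited linear intensities, 1 for every probe set of an array. The mean after trimming 2% at either end was the same on each array, so the deposited intensities had been scaled, by a tool not given in the sources used here. Dim probe sets are not fixed by such scaling. The 64 control probe sets were left out, which removed Gapdh from counts. Of the rest, 34945 named 1 gene, 932 several and 9160 none. Symbols were updated through the RefSeq table of GRCm38.p6 for 34741 probe sets, and 204 kept theirs. Each gene was read from its brightest probe set by mean intensity.

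Values under 52.9 units were raised to that floor and log2 was taken of the deposited intensities. Where 1 of 2 arrays was under it, a difference is a bound, and where both were, none is given. Counts used 2-fold. Values on all arrays are given for members past 2-fold and for the 3 widest differences in each comparison, other members by role, and other pathway genes only when past 2-fold. Promoter windows were searched for the motifs on both strands. The members and the other gene lists were chosen with earlier results of these data known. No test was run, since each group had 1 array, and additive terms for genotype and LPS, whose error would be the difference of LPS effects described here, were not fitted. Counting steps were tested on simulated data. Alternatives covered scaling, floor, probe set choice and threshold. Python 3.11.15, numpy 2.4.6 and pandas 2.3.3 were used.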

Additional observations from a re-analysis of the deposited data

Results flagged for a closer look

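For 4 genes the LPS effect on the brightest probe set had opposite directions in the 2 genotypes, and the difference was not tested. The direction was the same for 88.9% of the members, beside 76.5% of 9981 genes. The log2 LPS difference in DKO cells minus that in WT cells was -0.23 for Tpi1 (0.12 in WT and -0.11 in DKO cells), -0.30 for Egln3 (0.27 and -0.04, against -0.49 and at least 0.68 on its second probe set), -0.22 for Taldo1 (0.13 and -0.09) and -0.39 for Tkt (0.31 and -0.09). Neither of the other Tpi1 probe sets had opposite signs: they read -0.09 and -0.01, and 0.27 and 0.01, in WT and DKO cells. Of the other Tkt probe sets the brighter read 0.10 and -0.22, and the dim one -0.11 and -0.15. Taldo1 had no second probe set. The 2 brightest probe sets of a gene disagreed on the difference of LPS effects by a median of 0.27 over 4698 genes, which the values of Tpi1 and Taldo1 did not exceed. Over the 408 genes as bright as Tpi1, Taldo1 and Tkt the median of this quantity was -0.18.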

How the results depend on the processing

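With 1 array per group no replicate could be left out. The labels carry no replicate numbers to pair arrays by, and a fit with genotype or treatment as a block was not run. Over all alternatives 47 counts kept within 1.5 times their value and 8 did not, 40 medians moved by at most 0.1 and 5 by more, and 356 values of named genes stayed within the disagreement between probe sets while 47 moved further. No value past 2-fold changed sign. There were 19 sign changes among smaller values, in 6 genes, and 4 of these began from values over 0.30 in size: Pdk1 in DKO against WT untreated (-0.48 to 0.05 with the median of probe sets and to 0.16 with the second brightest), Pdk1 in the difference of LPS effects (0.62 to -0.24) and Egln3 in DKO against WT with LPS (-0.69 to 0.41), both with the second brightest. With array medians set equal, the median over members was 0.30 for LPS in WT cells (0.12 over all genes), 0.17 for DKO against WT untreated (0.19) and -0.31 for the difference of LPS effects (-0.26). Quantile normalization gave -0.02 for LPS in WT cells (-0.02), and the second brightest probe set of 22 members, chosen after seeing the data, gave -0.08 there and a count of 2 past 2-fold for LPS in DKO cells. At 1.5-fold the counts of the 36 were 7 for LPS in WT cells (19.8% of all genes), 10 for LPS in DKO cells (23.5%), 1 for DKO against WT untreated (7.33%), 5 with LPS (9.06%, 5.03% lower), all 5 lower (Slc16a1, Pdk3, Egln3, Ndrg1 and Pfkfb3), and 2 for the difference of LPS effects (9.63%). At 3-fold they were 1 and 2 for LPS in WT and DKO cells (2.18% and 3.69%). Slc2a1 and Slc2a6 stayed past 2-fold with LPS in both genotypes under every alternative run at that threshold. Hif1a did in 7 of 8 in WT cells, missing with its second brightest probe set (0.47), and Ddit4 in 6 of 7 in DKO cells, missing with no floor and an offset of 16 units (0.98). Signal over background limits the dim genes, of which Egln3 lies nearest the floor.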
